A study of Rattus norvegicus with 10 samples.

Results

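Neonatal rat ventricular cardiomyocytes that were paced while their contraction was blocked were compared with cultures that received neither pulses nor drug. The comparison was defined by the treatment labels: 3 arrays carried the label for pulsing with blebbistatin and 3 the label for no pulsing, which is 6 of the 10 arrays of the series. All cultures came from hearts of Lewis rats aged 0 to 3 days and were grown for 3 days after a recovery phase. The paced group was stimulated at 1 Hz and 2 V/cm with 10 µmol/L blebbistatin in the medium, and the nonpulsed group was untreated. The other 4 arrays came from cultures pulsed in the same way without drug. They link the groups, because each array belongs to 1 of 4 culture series, read from the date that sample titles share; the design names separate isolation series, and a shared date was taken to mark 1 of them. Nonpulsed and pulsed arrays made up series 1, pulsed and blebbistatin arrays series 4, and all 3 groups occurred in series 2 and 3, so only series 2 and 3 set the compared groups directly side by side. RNA of duplicate experiments was pooled for each array. No array of nonpulsed cells with blebbistatin is among the 10, so the effect of stilled contraction cannot be told apart here from any other action of blebbistatin, nor the drug from the pulses within this comparison alone.

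An electrical pulse depolarises a cardiomyocyte, opens its voltage-gated calcium channels and releases calcium from the sarcoplasmic reticulum, and calcium then lets myosin pull on actin. Blebbistatin inhibits the motor activity of class II myosins, in muscle and in nonmuscle cells alike, so that excitation and the calcium signal can go on with little or no shortening. The adult heart draws mainly on fatty acids and mitochondria for ATP, whereas the cells here were neonatal. In nonmuscle cells of a heart culture the tension made by myosin is known to feed genes of actin filaments and matrix.

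Signals are the authors' log2 values, so that 1 unit is a doubling, and fitted changes are limma estimates on that scale with culture series as a block. Because the groups do not occupy the same series, a fitted change need not equal the difference of the plain means. The median log2 signal of an array was 6.57 to 6.78. All 14 cardiomyocyte markers on the array were measured, with a median log2 signal of 12.26 to 12.95 in nonpulsed and 12.66 to 12.84 in blebbistatin arrays. The lowest value, 12.26, belonged to the nonpulsed array of series 1, which stood below the other 9 arrays in summed cardiomyocyte marker signal. The 3′ minus 5′ log2 difference of the GAPDH control probe sets, a measure of RNA integrity, was 0.0602 to 0.175 in nonpulsed and 0.187 to 0.225 in blebbistatin arrays. For beta-actin it was 0.45 to 0.68 and 0.69 to 0.77, also apart. For hexokinase it was 0.85 to 0.91 and 0.81 to 1.03, which overlapped. The part of RNA integrity in the results was not tested.

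Paced cultures with blocked contraction had more transcript of the potassium channel subunit gene Kcnip2 (7.54-fold), the NAD salvage kinase gene Nmrk2, the glycerol channel gene Aqp7 and the lipid droplet gene Plin5. They had less of the hyaluronan-degrading gene Cemip (5.73-fold lower), the microfibril gene Mfap5, the basement membrane collagen gene Col15a1 and the prostacyclin synthase gene Ptgis. In all, 36 of 18393 tested genes (0.196%) rose and 27 (0.147%) fell at an adjusted p under 0.05, of which 20 and 22 carry a single gene symbol and the other 21 are probe sets without one. The rises spanned 1.60-fold to 7.54-fold and the falls 1.82-fold to 5.73-fold, and 42 of the 63 were over 2-fold. All 63 moved in the fitted direction within series 2 and within series 3. The arrays of these series are also in the fit, so this is not an independent check. In 53 of the 63 (34 rises and 19 falls) the 3 blebbistatin arrays lay wholly above or below the 3 nonpulsed arrays, which was so for 18.1% and 6.77% of all tested genes. At an unadjusted p under 0.05, 15.8% of all tested genes had higher and 6.8% lower signals. Differences were positive for 11297 and negative for 7095 of the tested genes, a split that depends on scaling, since their median of 0.07 became 0.01 after quantile normalization and -0.01 after median centring.

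**Figure D1:**
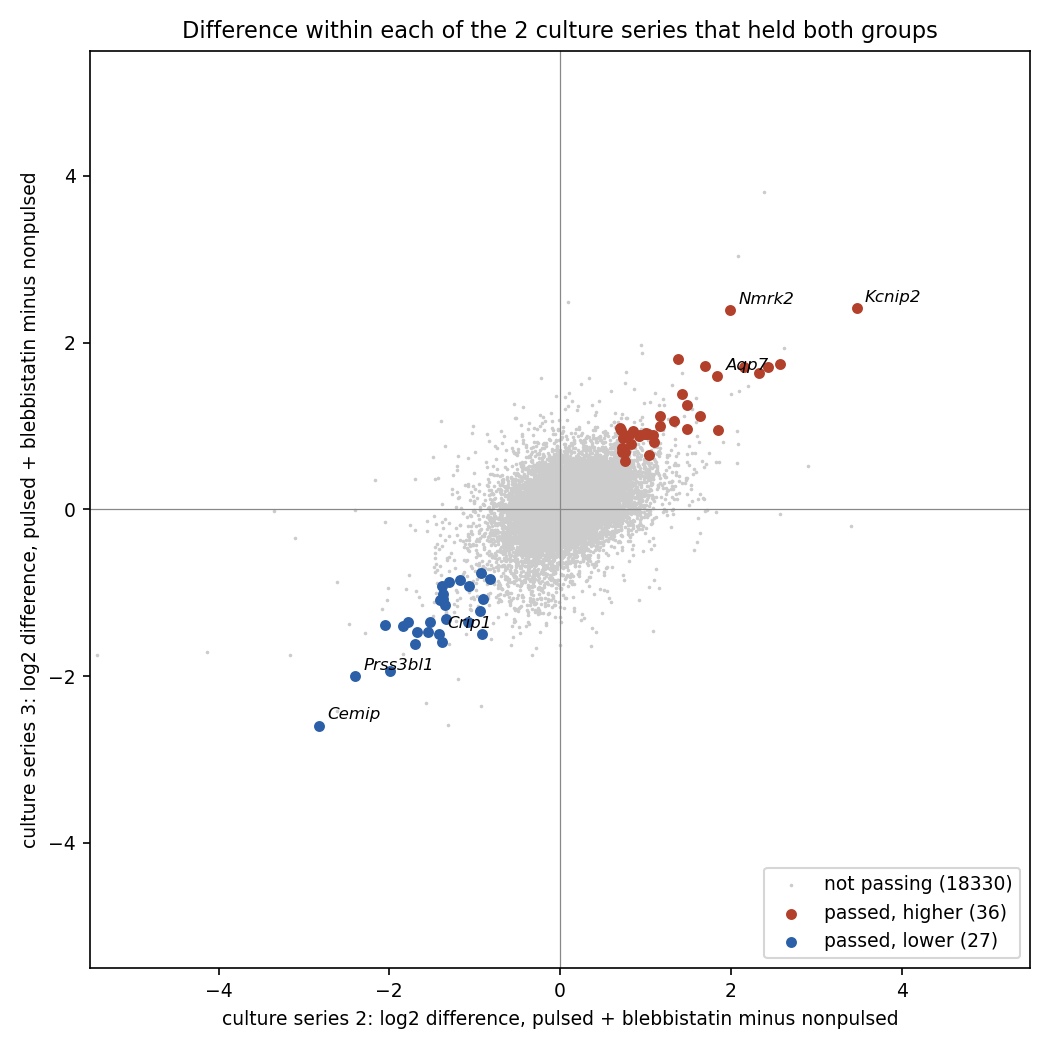
Log2 difference between the blebbistatin and nonpulsed arrays of series 2 (horizontal axis) against series 3 (vertical axis), 1 point per tested gene. Red and blue points are the 36 rises and 27 falls of the fit, which used these same arrays. They lie in the upper right and lower left quadrants, while most other genes lie near 0.

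The counts rested on few arrays. Leaving out either array of series 1 gave 28 rises and 18 falls, of which 18 and 14 were among the 36 and 27. Leaving out 1 array of series 2 gave 0 and 0 (nonpulsed or blebbistatin) or 4 and 2 (pulsed); of series 3, 7 and 0 (nonpulsed), 1 and 0 (pulsed) or 0 and 0 (blebbistatin); and leaving out either array of series 4 gave 2 and 6. With series 2 or series 3 left out whole, limma called 0 genes either way at an adjusted p under 0.05, against 2680 and 2875 genes at an unadjusted p under 0.05. Fitted without the replicate block, 24 genes rose and 6 fell, and 8 and 5 of these were among the 36 and 27.

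Kcnip2 encodes KChIP2, the accessory subunit that carries Kv4 channels to the membrane and shapes the transient outward potassium current of ventricular cells. Its log2 signal was 4.55, 6.29 and 8.25 on the nonpulsed arrays of series 1, 2 and 3, and 9.77, 10.66 and 10.08 on the blebbistatin arrays of series 2, 3 and 4. Every blebbistatin array was above every nonpulsed one, although the nonpulsed cultures differed widely among themselves (6.36 ± 1.85, SD, n = 3). The fitted rise was 2.91 (SE 0.33, limma adjusted p = 0.0319). Another Kcnip2 probe set gave 3.27 and one gave -0.10.

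Among 31 measured genes of ion channels and cell junctions, Kcnip2 alone passed the test. Of the 31, 28 differences were positive, 12 of them (38.7%) at an unadjusted p under 0.05 against 15.8% of all genes, and the list's median was 0.42 against 0.07 for all tested genes. That median was 0.34 within series 2, 0.29 within series 3 and 0.26 without series 1. The Kv4 pore subunit gene Kcnd3, whose product binds KChIP2, had a difference of 0.95 (adjusted p = 0.0683). Other Kcnd3 probe sets gave 0.92 and 0.15, the latter with -0.45 within series 2. Kcnj11, the pore of the ATP-sensitive potassium channel, had a difference of 1.17 (adjusted p = 0.114). Gja1, which encodes connexin 43 of the gap junctions, had 0.44 (adjusted p = 0.227).

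Nmrk2 phosphorylates nicotinamide riboside on the way to NAD and is known as a muscle enzyme. It had the lowest adjusted p of all tested genes. Its signals were 5.33, 6.45 and 7.41 on the nonpulsed arrays (series 1 to 3) and 8.44, 9.80 and 7.31 on the blebbistatin arrays (series 2 to 4). The groups overlapped, since the blebbistatin array of series 4 was below the nonpulsed array of series 3, yet each blebbistatin array was above the other arrays of its own series. The fitted rise was 2.12 (SE 0.12, limma adjusted p = 0.00672; 4.36-fold).

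Other energy-buffer genes moved both ways. Adss1, the muscle form of adenylosuccinate synthase in the purine nucleotide cycle, read 8.17, 9.07 and 9.65 on the nonpulsed arrays and 10.57, 10.89 and 10.93 on the blebbistatin arrays, with a fitted rise of 1.53 (SE 0.19, limma adjusted p = 0.0353). Gatm, which makes the precursor of creatine, read 7.44, 7.48 and 7.33 without pulses and 6.15, 6.02 and 5.88 with pulses and blebbistatin. Its arrays were tightly grouped and apart, and it fell by 1.25 (SE 0.12, limma adjusted p = 0.0311). The creatine kinase genes Ckm and Ckmt2 had differences of 1.04 and 1.45 that did not pass. Of the 20 measured genes of NAD salvage and energy buffering, 2 rose (Nmrk2 and Adss1) and 1 fell, against the background of 0.196% and 0.147%.

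Lipid handling genes outside the oxidation pathway were among the rises. Aqp7, an aquaporin that passes glycerol, read 7.86, 8.24 and 7.87 on the nonpulsed and 10.09, 9.47 and 9.01 on the blebbistatin arrays. The groups did not overlap, and the fitted rise was 1.78 (SE 0.18, limma adjusted p = 0.0311; 3.44-fold). Plin5, a perilipin that tethers lipid droplets to mitochondria in oxidative tissue, read 5.48, 6.52 and 6.50 against 7.96, 7.89 and 7.53, a rise of 1.52 (SE 0.21, limma adjusted p = 0.0436). Plpp3, a phosphatase of lipid phosphates, rose by 1.08 (SE 0.09, limma adjusted p = 0.0311), with overlapping groups.

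None of the 32 measured genes of fatty acid oxidation passed the test, yet all 32 had positive differences, 29 of them (90.6%) at an unadjusted p under 0.05, where the background is 15.8%. The list's median was 0.57, against 0.07 for all tested genes, and it was 0.51 within series 3. Cpt1b, the carnitine transferase that admits long-chain fatty acids to muscle mitochondria, read 10.11, 10.97 and 11.05 on the nonpulsed arrays and 11.82, 11.86 and 11.82 on the blebbistatin arrays. The groups did not overlap, and the difference was 1.01 (SE 0.19, limma adjusted p = 0.0682). Hadh, an enzyme of the beta-oxidation spiral, had 1.08 (adjusted p = 0.0536), Acaa2, its thiolase, 1.02 (adjusted p = 0.0682) and Acadvl, the first enzyme for very long chains, 0.90 (adjusted p = 0.0804). Acot1, a thioesterase that frees fatty acids from coenzyme A, had the largest difference of the list, 2.20 (adjusted p = 0.0849), but its groups overlapped because the blebbistatin array of series 4 read 4.89.

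Of 24 regulators of mitochondrial genes, 22 had positive differences, 13 of them (54.2%, against 15.8% of all genes) at an unadjusted p under 0.05, with a median of 0.40 and no gene past the test. Perm1, a muscle regulator induced by PGC-1 and estrogen-related receptors, had 1.48 (adjusted p = 0.0649), the retinoid receptor gene Rxrg 1.44 (adjusted p = 0.0682), and the coactivator genes Ppargc1b and Ppargc1a 1.52 (adjusted p = 0.0943) and 0.80 (adjusted p = 0.113). Another Rxrg probe set gave 0.33. All 14 genes of the tricarboxylic acid cycle and 29 of 30 of oxidative phosphorylation were positive, against 11297 of 18393 for all tested genes. Their medians were smaller, at 0.38 and 0.29. Within series 2 these medians were 0.17 and 0.13. At an unadjusted p under 0.05, 6 of the 14 (42.9%) and 6 of the 30 (20%) were higher, the latter near the 15.8% of all genes. Glycolysis and glucose genes had a median of 0.35 over 27 genes, but 0.19 without series 1. Its muscle phosphoglycerate mutase gene Pgam2 had 1.83 (adjusted p = 0.0654). Ppp1r3b, which brings a phosphatase to glycogen, lies outside that list and rose by 1.27 (SE 0.18, limma adjusted p = 0.0459), from 6.24, 6.50 and 6.22 to 7.67, 7.34 and 7.60.

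The following rises, Osgin1, Slc40a1 and Gclm, were set together after their values were seen. Osgin1, an oxidative stress response gene, read 5.67, 6.93 and 6.30 on the nonpulsed and 8.62, 8.02 and 7.45 on the blebbistatin arrays, which did not overlap. It rose by 1.79 (SE 0.15, limma adjusted p = 0.0305; 3.46-fold). Slc40a1, the iron exporter ferroportin, read 9.0, 8.40 and 8.72 against 10.04, 9.84 and 9.98 and rose by 1.33 (SE 0.15, limma adjusted p = 0.0323). Gclm, the modifier subunit of the enzyme that limits glutathione synthesis, read 9.39, 9.54 and 9.61 against 10.30, 10.19 and 9.77. Its rise of 0.68 (SE 0.10, limma adjusted p = 0.0495; 1.60-fold) was the smallest of the 63 changes, though the groups did not overlap.

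Gclm was the only 1 of 26 measured antioxidant genes and targets of the transcription factor NRF2 to pass. Of the 26, 22 had positive differences, 11 of them (42.3%, against 15.8% of all genes) at an unadjusted p under 0.05, with a median of 0.33, and of 0.43 and 0.24 within series 2 and 3. Hmox1, the heme-degrading enzyme, had a difference of 1.62 (adjusted p = 0.0682) and Gsta4, a glutathione transferase for lipid aldehydes, 1.58 (adjusted p = 0.0536). Both had blebbistatin arrays above all nonpulsed arrays.

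Further rises had no common list. Doc2g, of the double C2 domain family, read 4.12, 4.48 and 5.46 against 6.92, 7.17 and 7.74, with no overlap, and rose by 2.30 (SE 0.24, limma adjusted p = 0.0319; 4.91-fold). Tmem179, a transmembrane protein gene, read 5.79, 6.12 and 7.24 against 8.28, 8.95 and 8.34 and rose by 2.06 (SE 0.28, limma adjusted p = 0.0412). Lsamp, a membrane-anchored adhesion protein of the immunoglobulin family, rose by 1.47 (adjusted p = 0.0357) and Asb14, an ankyrin repeat protein with a SOCS box, by 1.30 (adjusted p = 0.0432). The nonpulsed means of Doc2g (4.69) and Lsamp (4.84) were below the filter cutoff of 5.09, which their means over all arrays exceeded. Their fold changes thus start from low signals.

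**Figure D2:**
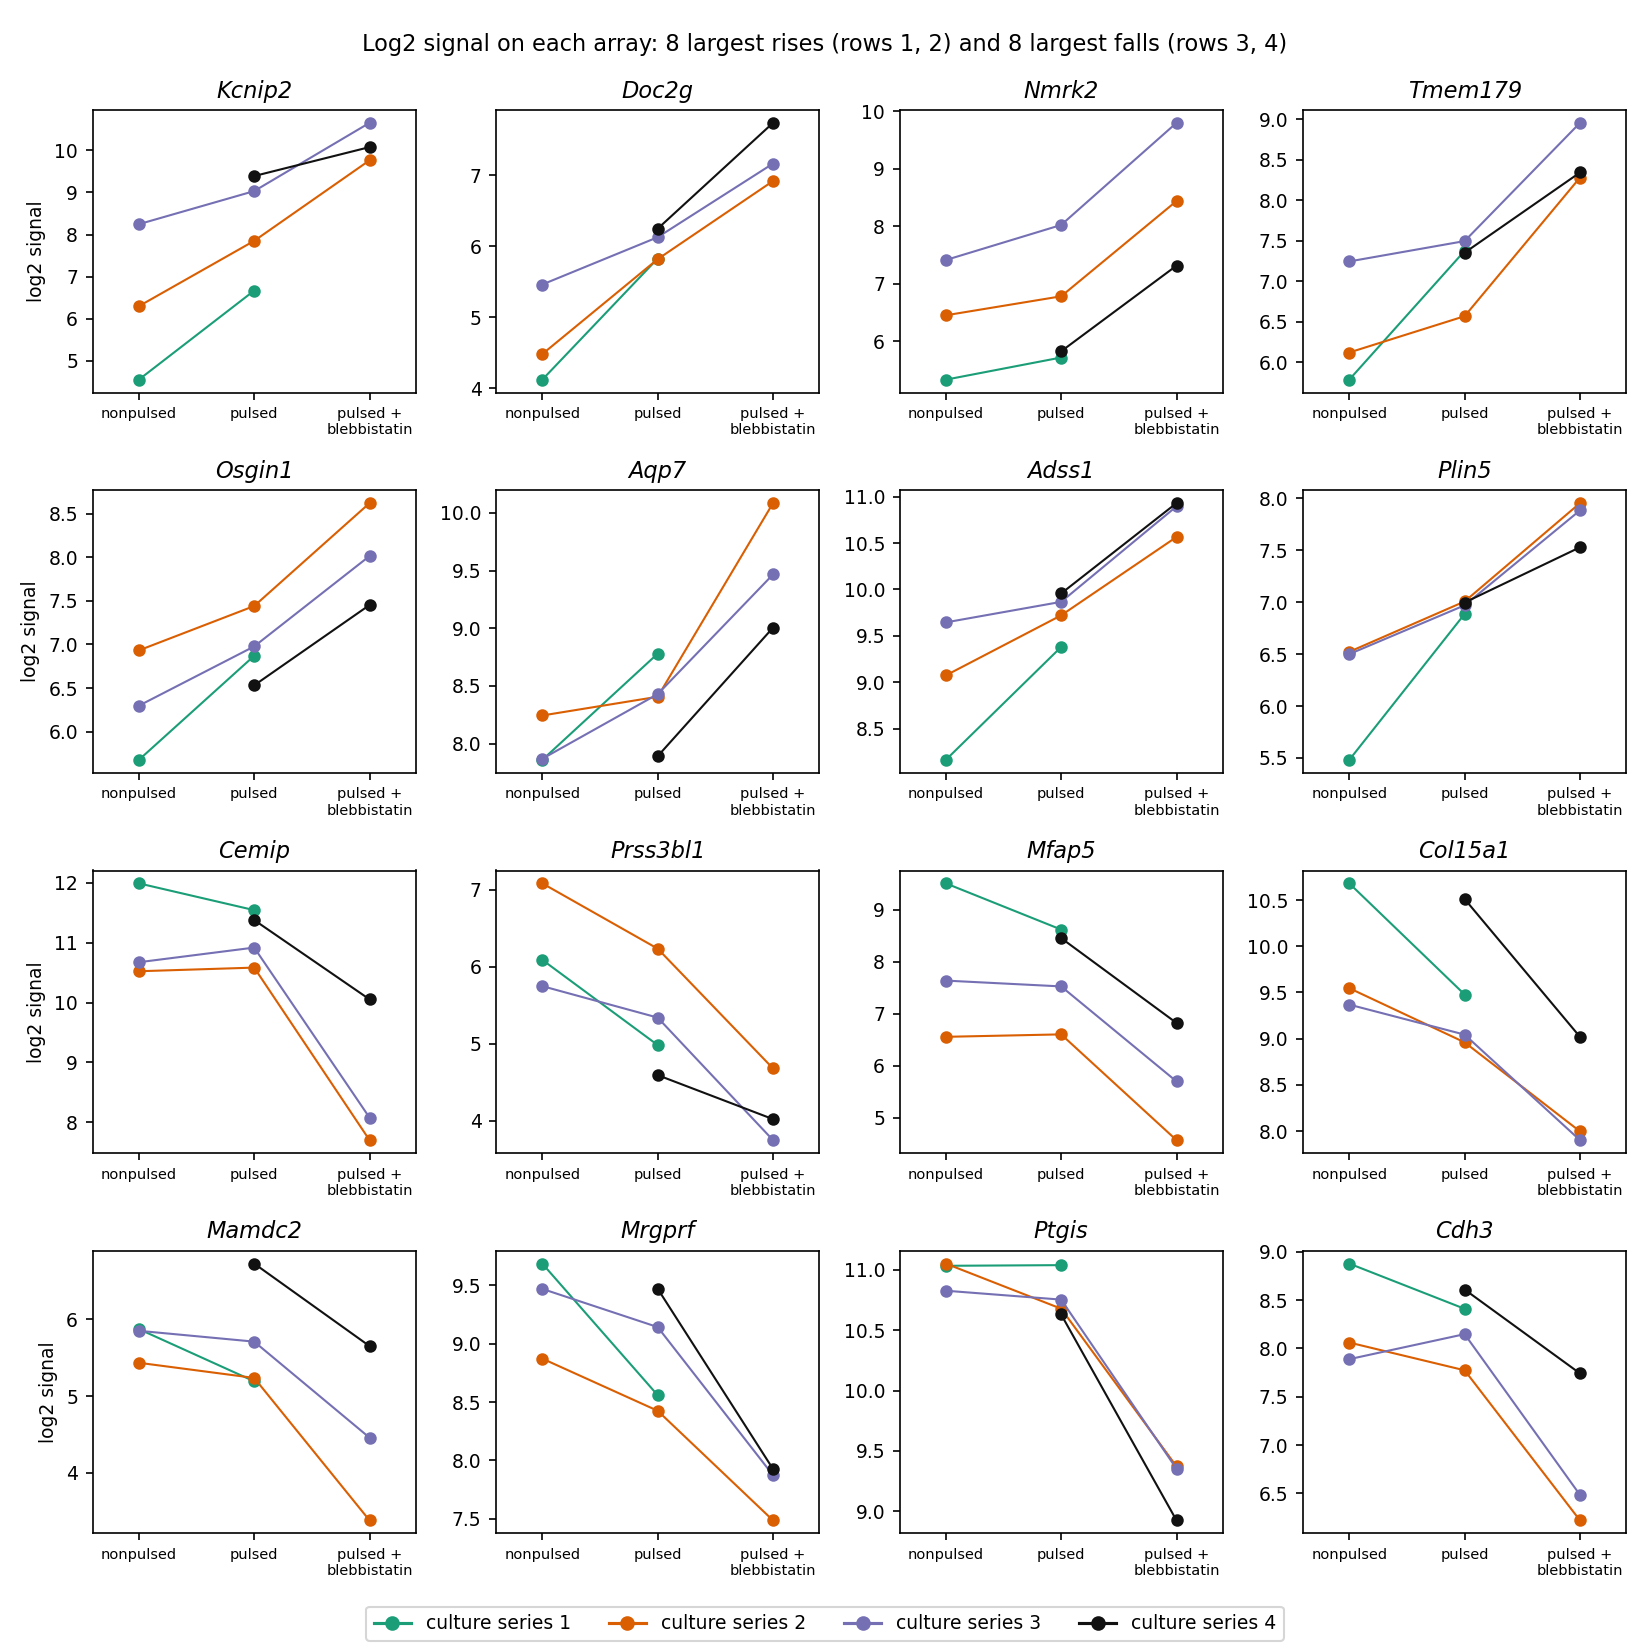
Log2 signal on every array for the 8 named genes with the largest rises (upper 2 rows) and the 8 with the largest falls (lower 2 rows); colours and lines join the arrays of a culture series. Genes plotted here had to move the same way in series 2 and 3. By that rule, the blebbistatin points of these series lie above the nonpulsed points in upper panels and below them in lower panels.

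Cemip binds and depolymerises hyaluronan in the matrix. Its log2 signal was 11.99, 10.52 and 10.67 on the nonpulsed arrays of series 1, 2 and 3, and 7.70, 8.08 and 10.05 on the blebbistatin arrays of series 2, 3 and 4. The groups did not overlap, although the blebbistatin array of series 4 stayed much closer to the nonpulsed arrays than the others. It fell by 2.52 (SE 0.32, limma adjusted p = 0.0357; 5.73-fold).

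Several genes of secreted and matrix proteins fell. Mfap5, a glycoprotein of elastin-associated microfibrils, read 9.51, 6.55 and 7.64 on the nonpulsed and 4.56, 5.70 and 6.82 on the blebbistatin arrays. The series differed enough for the groups to overlap, but within series 2 and 3 the blebbistatin array was lower, and Mfap5 fell by 2.08 (SE 0.19, limma adjusted p = 0.0311; 4.22-fold). Col15a1, a collagen of the basement membrane zone, read 10.68, 9.55 and 9.37 against 8.0, 7.90 and 9.02, without overlap, and fell by 1.75 (SE 0.21, limma adjusted p = 0.0323). Lox, which crosslinks collagen and elastin, read 11.67, 10.98 and 10.75 against 9.68, 9.88 and 10.21, also without overlap, and fell by 1.08 (SE 0.14, limma adjusted p = 0.04). Serpinf1, the secreted factor PEDF, and Ssc5d, a soluble scavenger receptor, fell by 1.28 and 1.32, both with overlapping groups.

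Of the 36 measured extracellular matrix genes, Col15a1 and Lox fell and no gene rose. In all, 34 of the 36 differences were negative, 21 of them (58.3%) at an unadjusted p under 0.05 against a background of 6.8%, and the median was -0.40. The abundant fibrillar collagens had -0.16 for Col1a1 and -0.30 for Col3a1, and another Col1a1 probe set gave -0.36. Periostin (Postn) had -0.44 (adjusted p = 0.11). Fbln2, a fibulin of elastic matrix, had -1.36 (adjusted p = 0.0876).

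Ptgis, the synthase of the vasodilator prostacyclin, read 11.03, 11.05 and 10.83 without pulses and 9.37, 9.35 and 8.93 with pulses and blebbistatin. Both groups were narrow and far apart, and the fall was 1.60 on the log2 scale (SE 0.13, limma adjusted p = 0.0305; 3.03-fold). Crip1, a small LIM domain protein, was as narrow, with 10.81, 10.51 and 10.47 against 9.09, 8.98 and 9.06 and a fall of 1.44 (SE 0.15, limma adjusted p = 0.0319). Mrgprf, an orphan G protein-coupled receptor, fell by 1.72 (SE 0.21, limma adjusted p = 0.0323), and the adhesion gene Cdh3 (P-cadherin) by 1.56 (SE 0.20, limma adjusted p = 0.0399). Prss3bl1, of the serine protease family, read 6.09, 7.08 and 5.75 against 4.68, 3.75 and 4.02 and fell by 2.10 (SE 0.23, limma adjusted p = 0.0319). Il1rap, the accessory chain of the interleukin 1 receptor, fell by 1.37 (adjusted p = 0.0323), but another of its probe sets gave -0.25. Mamdc2 fell by 1.73 (limma adjusted p = 0.0321) with overlapping groups. Its blebbistatin array of series 2 was at the lowest level of that array, so the difference within series 2 is a bound. Clec3b, which encodes tetranectin, fell by 1.12 (adjusted p = 0.04) with overlapping groups, and another probe set gave -0.06.

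RefSeq sequences upstream of the start site (build GRCr8) were available for 32 of the 42 passing genes with a symbol, 16 rises and 16 falls. They are shown for the largest rise and fall, Kcnip2 (chr1:254613899-254614148, minus strand) and Cemip (chr1:147471484-147471733, minus strand), and for Gclm (chr2:213031885-213032134, plus strand) and Tmem179 (chr6:137401439-137401688, minus strand), which rose and hold the antioxidant response core. Each is the 250 bases before the start, 5′ to 3′ on the strand of the gene. Capitals mark matches on either strand to the antioxidant response core TGACNNNGC or the dioxin response core GCGTG.
Kcnip2: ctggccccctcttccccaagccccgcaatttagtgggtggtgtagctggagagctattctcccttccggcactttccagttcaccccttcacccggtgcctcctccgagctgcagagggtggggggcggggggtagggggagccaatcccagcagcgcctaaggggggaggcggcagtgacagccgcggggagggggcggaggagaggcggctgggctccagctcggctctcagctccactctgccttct
Cemip: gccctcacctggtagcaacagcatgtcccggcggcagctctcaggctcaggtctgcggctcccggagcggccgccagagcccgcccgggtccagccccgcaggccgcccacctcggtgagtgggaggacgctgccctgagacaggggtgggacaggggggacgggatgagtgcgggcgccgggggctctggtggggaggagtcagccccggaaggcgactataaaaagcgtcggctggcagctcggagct
Gclm: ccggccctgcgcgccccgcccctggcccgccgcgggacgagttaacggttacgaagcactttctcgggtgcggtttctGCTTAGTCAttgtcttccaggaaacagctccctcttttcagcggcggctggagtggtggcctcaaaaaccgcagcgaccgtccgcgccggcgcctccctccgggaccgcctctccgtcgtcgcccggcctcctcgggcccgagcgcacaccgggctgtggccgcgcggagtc
Tmem179: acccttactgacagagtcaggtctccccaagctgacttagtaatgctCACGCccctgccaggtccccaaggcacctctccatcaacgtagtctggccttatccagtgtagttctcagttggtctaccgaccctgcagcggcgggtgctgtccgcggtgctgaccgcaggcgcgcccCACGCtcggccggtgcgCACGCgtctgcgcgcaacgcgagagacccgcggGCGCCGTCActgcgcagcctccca
In windows from 250 bases before to 50 after the start, the antioxidant response core was found in 6 of the 16 rising genes (Doc2g, Gclm, Lsamp, Septin4, Slc22a4 and Tmem179), in 1 of the 16 falling genes (Crip1) and in 13.1% of the 27457 genes of the RefSeq table. The dioxin response core was found in 9 rising genes, 8 falling genes and 32.4% of all genes. The E-box CACGTG and the CArG box, the site of serum response factor, were found in 0 of the 32 genes, against 7.1% and 1.8% of all genes in the table. A match is a run of letters and not a bound site, genes with several starts were counted if any window matched, and no test was made.

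By construction of the fit, each change is the sum of the change from nonpulsed to pulsed and that from pulsed to pulsed with blebbistatin. Both steps share the pulsed arrays. Over the 36 rises the steps had similar medians, 0.56 from nonpulsed to pulsed and 0.59 from pulsed to blebbistatin. Over the 27 falls the medians were -0.27 and -1.13. Kcnip2 had 1.59 and 1.32, Ppp1r3b 0.96 and 0.30, and Nmrk2 0.47 and 1.66. Cemip had -0.21 and -2.31, Ptgis -0.11 and -1.49, and Clec3b 0.43 and -1.55.

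Taken alone, the step from pulsed to blebbistatin passed for 3 genes (0.0163% of those tested; Nmrk2, Ptgis and Clec3b). The step from nonpulsed to pulsed passed for 0 genes (limma, lowest adjusted p = 0.49), with 1674 genes at an unadjusted p under 0.05 against 4165 for the whole distance. The difference between these counts was not tested, and the residual degrees of freedom were 4.

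**Figure D3:**
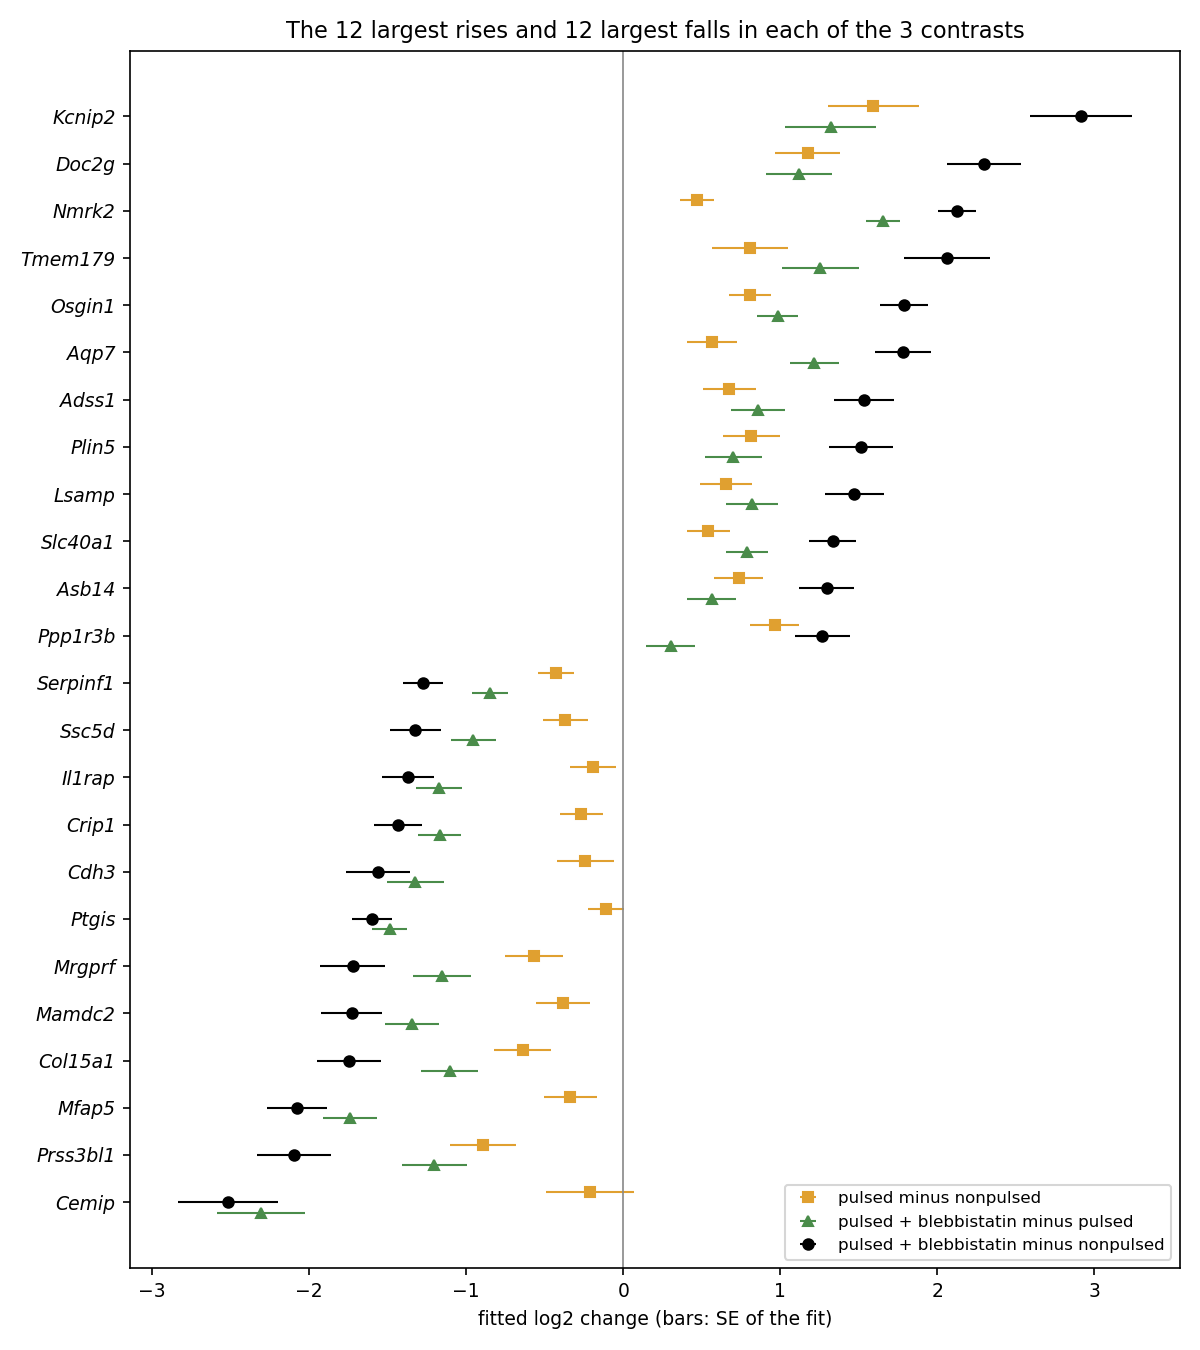
Fitted log2 change (horizontal axis, bars are the SE of the fit) of the 12 largest rises and 12 largest falls among genes with 1 symbol, in the whole comparison (black) and in its 2 steps (orange, pulsed minus nonpulsed; green, pulsed with blebbistatin minus pulsed). Orange and green points sum to the black one; for the falling genes shown the orange points lie between -0.89 and -0.11.

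The classical markers of cardiac load and growth did not pass. Nppa and Nppb, the natriuretic peptide genes, had differences of -0.34 (adjusted p = 0.203) and -0.20 (adjusted p = 0.36). The alpha and beta myosin heavy chain genes Myh6 and Myh7 had 0.47 (limma adjusted p = 0.136) and -0.21 (limma adjusted p = 0.499). Another probe set gave 1.14 for Myh6 and -0.42 for Myh7. Skeletal actin (Acta1) had 0.17 (limma adjusted p = 0.725) and the calcium pump gene Atp2a2 0.35 (limma adjusted p = 0.249). Other Atp2a2 probe sets kept by the filter gave 0.42 to 0.86, and the probe set it left out gave -0.08. Of 22 genes of hypertrophy and stretch, 18 differences were negative, 8 of them (36.4%, against 6.8% of all genes) at an unadjusted p under 0.05, and the median was -0.39. Sarcomere genes had a median of 0.28 over 27 genes, but of -0.01 within series 2 and 0.08 without series 1. In calcium handling, 17 of 25 differences were positive; 5 positive (20%) and 4 negative ones (16%) had an unadjusted p under 0.05, against 15.8% and 6.8% of all genes. Casq1, the skeletal calsequestrin, had -2.47 (adjusted p = 0.09), with -4.13 within series 2 and -1.72 within series 3.

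Genes of actin filaments, adhesion and serum response factor had negative differences in 31 of 34 cases, 15 of them (44.1%, against 6.8% of all genes) at an unadjusted p under 0.05, with a median of -0.36 and no gene past the test. Cnn1, the smooth muscle calponin, read 10.74, 10.85 and 9.72 without pulses and 9.28, 7.40 and 6.57 with pulses and blebbistatin. The groups did not overlap, and the difference was -2.40 (SE 0.41, limma adjusted p = 0.0649). Lmod1, which nucleates actin in smooth muscle, had -1.74 (adjusted p = 0.0931), Tagln (transgelin) -1.12 (adjusted p = 0.0936) and Acta2 (smooth muscle actin) -0.71 (adjusted p = 0.116).

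Of 39 cell cycle genes, 38 had negative differences, 21 of them (53.8%) at an unadjusted p under 0.05 against 6.8% of all genes, with none past the test. The list's median was -0.64, but the series were unequal, with -0.25 within series 2 and -0.86 within series 3, and it was -0.27 without the blebbistatin array of series 3. Cdk1, the mitotic kinase, had -0.93 (adjusted p = 0.156), cyclin A2 (Ccna2) -0.97 (adjusted p = 0.133) and the proliferation marker Mki67 -0.74 (adjusted p = 0.185).

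**Figure D4:**
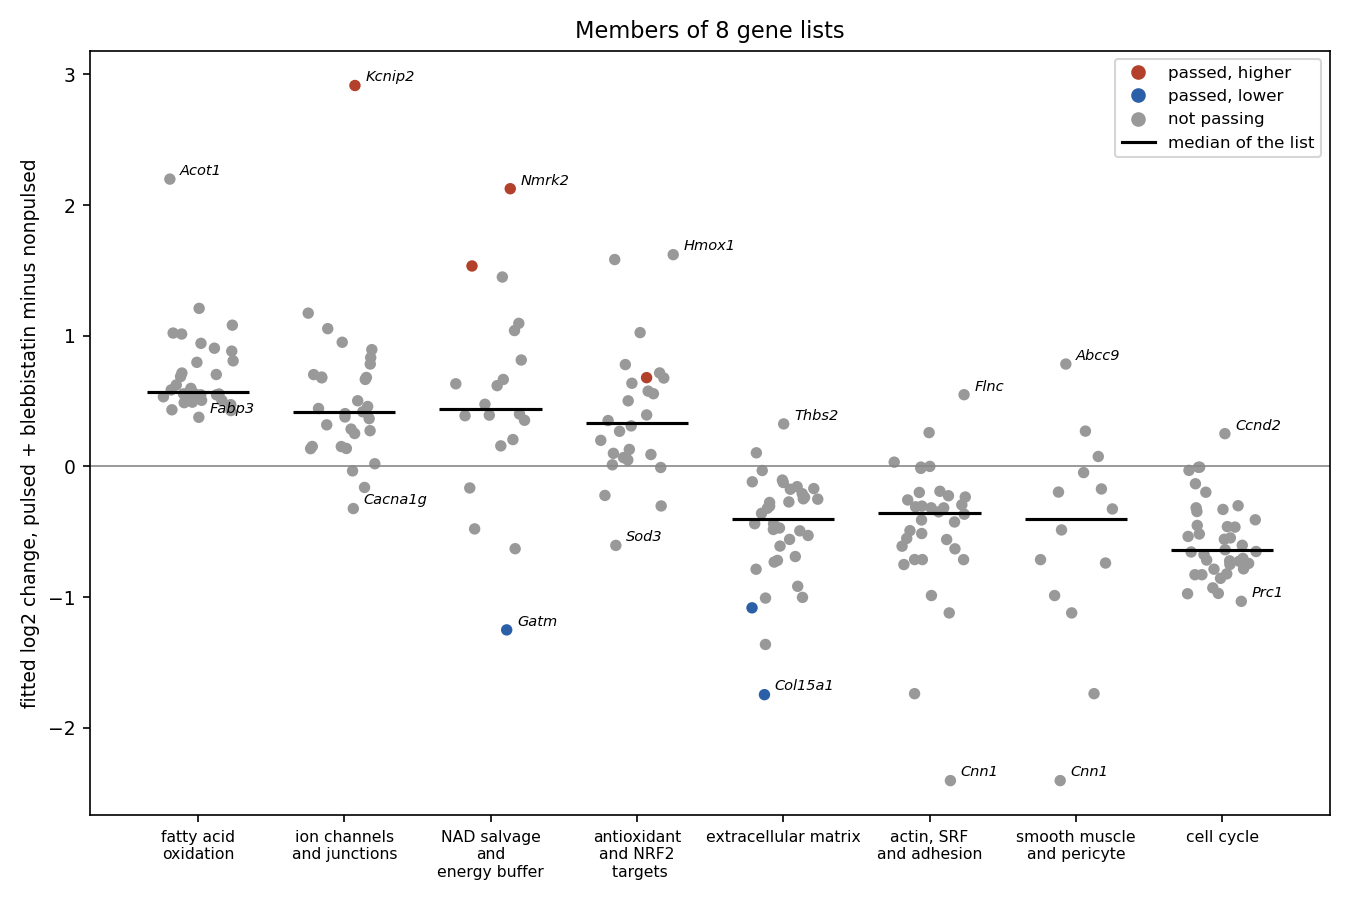
Fitted log2 change (vertical axis) of each measured gene in 8 lists, with the list's median as a bar; red and blue points passed the test and grey points did not. Fatty acid oxidation lies wholly above 0 with a median of 0.57, and cell cycle lies below 0 except for Ccnd2, with a median of -0.64.

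Markers of cell types were set beside these lists. The summed linear signal of 14 smooth muscle and pericyte markers was 20768 to 28406 on the nonpulsed and 15676 to 18220 on the blebbistatin arrays, without overlap, and 11 of the 14 differences were negative (median -0.41). The 16 fibroblast markers summed to 69767 to 93995 and 56671 to 75729, which overlapped, with 15 of 16 differences negative and a median of -0.27. Within a series the fibroblast sum was lower with blebbistatin, at 56671 against 69767 nonpulsed in series 2 and 63207 against 76644 in series 3. The 14 cardiomyocyte markers summed to 70133 to 99086 and 99466 to 105194, ranges that did not overlap but nearly met. Within a series the sums were 101541 with blebbistatin against 99086 nonpulsed in series 2, and 99466 against 93288 in series 3. The median log2 signal of these markers was lower with blebbistatin, at 12.84 against 12.95 and 12.66 against 12.70. The median of their fitted differences was 0.34, but that of the differences was 0.10 within series 2 and within series 3. Beside it, ion channels and junctions had a median of 0.42, the tricarboxylic acid cycle 0.38, glycolysis and glucose 0.35 and oxidative phosphorylation 0.29. The part of cell composition was not tested, either in these positive differences or in the matrix, actin and cell cycle differences. In bulk RNA, fewer or more cells of a type cannot be told apart from less or more RNA per cell. The lists overlap, since 8 of the 16 fibroblast markers are also matrix genes (8 of 36) and 5 of the 14 smooth muscle markers are also in the actin list (5 of 34).

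For other cells the marker sums overlapped for 9 endothelial genes (1566 to 2229 nonpulsed, 1641 to 2250 blebbistatin), 14 macrophage and leukocyte genes (2252 to 7472, 2116 to 4198), 4 erythroid genes (278 to 323, 248 to 317), 7 mesothelial genes (1163 to 1449, 1274 to 1523) and 8 atrial genes (16836 to 20880, 13737 to 21199). The 9 Schwann and neural genes were apart, at 2405 to 3169 and 1797 to 2136. No marker gene of any list passed the test.

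In the remaining lists, Ptgis was the only gene to pass. Immediate early genes had a median of -0.32, but 0.13 within series 2 and -0.11 within series 3. Hypoxia response genes had 0.30, and 0.10 without series 1. Genes of muscle atrophy and autophagy had 0.22, and those of inflammation and interferon 0.13, where Ptgis fell and 5 of 31 were higher and 2 lower at an unadjusted p under 0.05, shares near the 15.8% and 6.8% of all genes. The 8 targets of the aryl hydrocarbon receptor had 0.24, with 0.29 and 0.25 within series 2 and 3. Cholesterol synthesis, heat shock and unfolded protein response, amino acid stress response and the circadian clock had medians of -0.05, -0.03, 0.03 and 0.02, each of which changed sign under some setting.

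**Figure D5:**
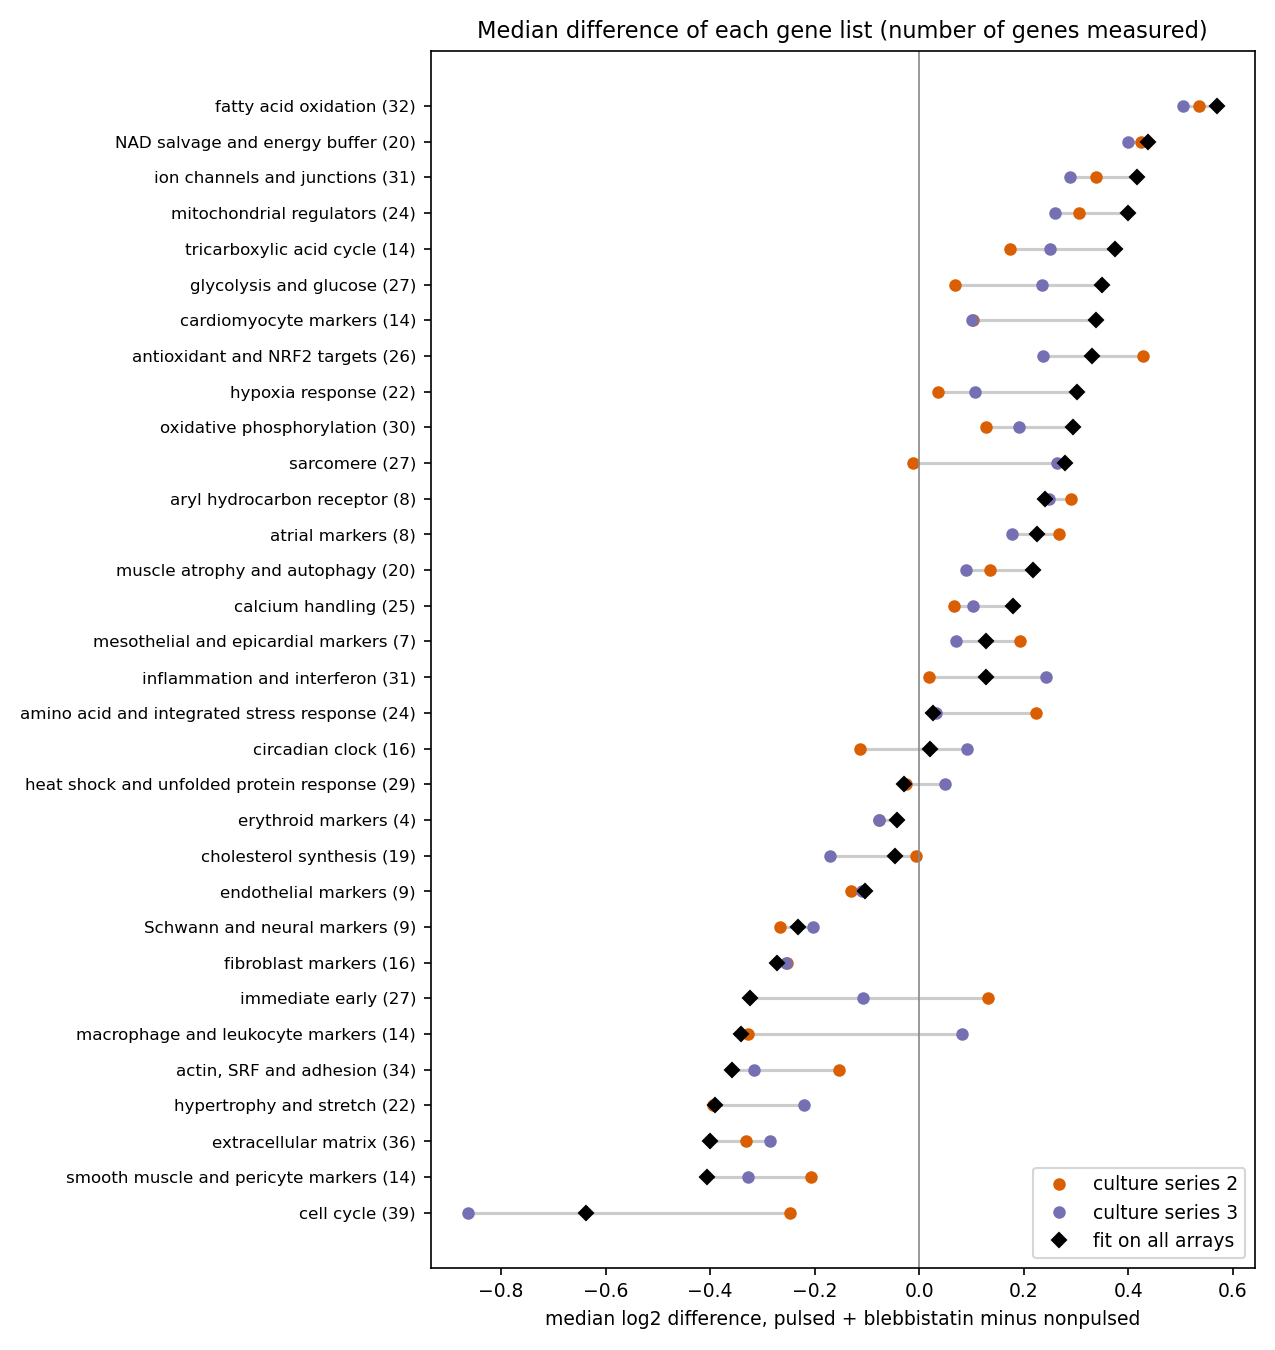
Median log2 difference (horizontal axis) of each list between blebbistatin and nonpulsed cultures, from the fit on all arrays (black diamonds) and within culture series 2 (orange) and 3 (violet); the number of measured genes is in brackets. Of the lists plotted, fatty acid oxidation has the highest median and cell cycle the lowest, and the series differ most for cell cycle (-0.25 and -0.86).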

How the data were processed

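Total RNA was hybridised to Affymetrix rat arrays, and the authors' deposited values are log2 signals; the submitters' processing notes name PLIER and version 1.1 of Affymetrix Expression Console, and nothing further was normalized. Of 31099 probe sets, 57 controls and the 25% with the lowest mean (log2 under 5.09) were left out. The probe set with the highest mean stood for each gene; probe sets without exactly 1 symbol were tested singly (11846 of 18393 tests carried a symbol). limma 3.58.1 (R 4.3.3) fitted group and culture series on all 10 arrays, with Benjamini-Hochberg adjustment over the 18393, after being tested on simulated data. Series pair the samples: deviations from the group means correlated at 0.347 to 0.64 within a series (8 pairs) and at -0.583 to 0.494 between series (25 pairs). Arrays of a series are taken to share an isolation, and the small number of series limits the precision.

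Named genes were the 12 largest passing rises and falls with 1 symbol, up to 3 per list that passed (or the largest difference), and 12 fixed genes. The comparison, the 23 pathway lists and the 9 marker lists were chosen with earlier results of these data known. The choice of a further 4 lists and of other example genes followed sight of their values. Alternatives changed the block, arrays, normalization, filter, probe sets, prior and minimum fold. Promoter sequences are from RefSeq, build GRCr8.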

Additional observations from a re-analysis of the deposited data

Results flagged for a closer look

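Tmem179 had 1 array far from the others of its group in the 4 pulsed cultures: its log2 signal was 6.57 in series 2 and 7.35 to 7.5 in series 1, 3 and 4, a gap of 0.845 of the whole range. Chance sets an array apart in this way in about 1 in 20 groups. The screen covered the 12 largest rises, the 12 largest falls and the 12 fixed genes, so a flag can arise by chance alone. In series 2 the nonpulsed array (6.12) was the middle value of its group and the blebbistatin array (8.28) the lowest of its group.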

How the results depend on the processing

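Unless a number is named as a median, the following are counts of genes that rose and fell, against 36 and 27. Called numbers depended on the model: 24 and 6 without a replicate block, 792 and 228 with series as a random replicate block, 0 and 2 on the 6 arrays with the replicate block, 0 and 0 on them without it (2996 genes at an unadjusted p under 0.05), and 5 and 14 on series 2 and 3 alone. With no filter 1 and 0 passed, with a trended and robust prior 84 and 52, and against a minimum fold of 1.5, 1 and 0. Leaving out 1 array gave 0 to 28 rises and 0 to 18 falls; leaving out series 2, 3 or 4 gave 0 and 0, 0 and 0, and 2 and 6. Quantile normalization (25 and 26), median centring (31 and 31), a stricter filter (35 and 23) and other choices of probe set stayed within 1.5 times in count. Of the genes under the stricter filter, 22 and 20 were among the 36 and 27. No passing named gene changed direction in any of the 27 alternatives that measured it. Leaving out series 1 or either of its arrays gave the same fit, and likewise for series 4. The counts that follow therefore hold repeats. Nmrk2 passed in 19 of the 27 (1.95 to 2.22) and Ptgis in 16 (-1.75 to -1.49), but Gclm in 3 and Clec3b in 5 (-1.26 to -0.59). Genes that had not passed and changed sign were Acta1 (-0.043 on the compared groups or on series 2 and 3 alone, with the replicate block, and -0.015 to 0.58 with 1 array left out, negative without the blebbistatin array of series 3), Fosl1 (0.018 in the first 2 of these) and Lrrn4 (-0.033 with probe sets averaged, -0.35 with the most variable one). The median of fatty acid oxidation stayed between 0.49 and 0.70 and that of cell cycle between -0.85 and -0.27. The medians of cholesterol, heat shock, amino acid stress, inflammation, clock, erythroid and mesothelial lists changed sign under some setting. Where an array is at its lowest level, a difference taken from that array is a bound, which held for Mamdc2 alone among the 63. The cause of these shifts was not tested.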

Other observations

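A set of 4 gene lists was drawn up after the values had been seen, so their counts are descriptions; over all 18393 tested genes, 0.196% rose, 0.147% fell, 11297 differences were positive and the median was 0.07. Of 23 genes of lipid droplets and glycerol handling, 4 rose (Aqp7, Plin5, Plpp3 and Gpcpd1), 21 differences were positive and the median was 0.58, with 0.39 and 0.46 within series 2 and 3. Fitm2, which helps droplets to form, had 1.44 (adjusted p = 0.0651), the droplet coat gene Plin4 1.29 (adjusted p = 0.0821) and the triglyceride lipase gene Pnpla2 0.69. Of 18 elastic fibre and microfibril genes, Mfap5 and Lox fell and 16 differences were negative, with a median of -0.58, and elastin itself (Eln) had -0.79 (adjusted p = 0.103). All 8 measured genes of hyaluronan had negative differences (median -0.77, and -0.39 and -0.72 within series 2 and 3) and Cemip fell. The synthase gene Has2 had -1.50 (adjusted p = 0.234), but -0.77 and -0.52 within these series, and the hyaluronan-binding proteoglycan gene Vcan -1.29 (adjusted p = 0.0945). Of 11 genes of iron and heme handling, Slc40a1 rose and the median was 0.25.

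Cd74, the invariant chain of antigen presentation and usually a gene of leukocytes, read 3.94, 4.90 and 5.65 on the nonpulsed and 7.52, 7.58 and 8.64 on the blebbistatin arrays. The groups did not overlap, and the difference was 2.80 (SE 0.43, limma adjusted p = 0.0552), while the macrophage and leukocyte list had a median of -0.34. Cyp1a1, the main target of the aryl hydrocarbon receptor, had a fitted difference of 0.99 (adjusted p = 0.127) and was highest on the blebbistatin array in each series that held one, but its level differed more between series, with 3.73 and 4.58 in series 1 (nonpulsed and pulsed), 8.88 to 10.53 over the 6 arrays of series 2 and 3, and 5.09 and 6.06 in series 4 (pulsed and blebbistatin). Hbegf, a stretch-responsive growth factor gene, had -1.77 (adjusted p = 0.204), but -0.68 and -0.96 within series 2 and 3. Ptgs2, the inducible cyclooxygenase, had -2.28 (adjusted p = 0.244), but -0.72 and -1.08 within these series and -3.32 to -0.90 over the alternatives. Fosl1, of the AP-1 family, had -1.49 (adjusted p = 0.461), but 0.14 and -0.10 within them. Epas1, which encodes the hypoxia factor HIF-2 alpha, had 0.84 (adjusted p = 0.0649), and Pdia4, an endoplasmic reticulum chaperone gene, had -0.70 (adjusted p = 0.0587).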
